A study of Danio rerio with 12 samples.

Results

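The regions described here are the stretches of zebrafish chromosome 4 at which methylation was lower in dnmt3ba morphant than in control haemogenic endothelial cells. They were chosen by the sign of the morphant minus the control level in the authors' deposited table, which lists regions at which the groups differed at a q-value under 0.05. Of the 7550 regions in that table, 6807 lost methylation, and 405 of these lay on chromosome 4. The cells are the endothelium from which blood stem and progenitor cells emerge, sorted from the trunk of embryos at 36 hours post-fertilisation by a kdrl-driven mCherry reporter together with GFP driven by an enhancer of runx1. Controls carry the genotype label WT, and morphants the label dnmt3ba knockdown, by a morpholino, which lowers a gene's product for a limited time and deletes nothing. Both groups carried both reporters. No source used here says what the controls were injected with or which step the morpholino blocks. Each group had 3 samples for bisulfite sequencing, with 5000 sorted cells named in the protocol, and 3 further samples for RNA.

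Dnmt3 enzymes place new methyl groups on cytosines of CpG dinucleotides, whereas Dnmt1 copies existing methylation after replication. In zebrafish most CpG sites outside regulatory regions are methylated, repeats included. Chromosome 4 is unusual in this species. Its short arm is an ordinary gene-bearing arm, while its long arm is largely heterochromatic, replicates late, and is rich in satellites, transposons, ribosomal RNA genes and multicopy families such as NLR and zinc finger genes.

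The table gives 1 methylation level per group and region and no level per replicate, so the levels carry no error and no region or group of regions was tested here. The q-values are the authors'. No source used here gives the read coverage or how many regions the authors tested on each chromosome or arm. The table lists no change under 10 percentage points, no region under 50 bp and none with fewer than 5 CpG sites. In the RNA libraries the labelled cell type was checked against 6 markers fixed for it, in the authors' TPM, a read count scaled by transcript length and library size. None was absent: the lowest TPM over the 6 libraries was 7.15 for runx1, 16.15 for cdh5, 16.56 for kdrl, 32.34 for gata2b, 36.63 for tal1 and 96.75 for myb. For 3 of the 6 the morphant libraries lay below all control libraries, as was the case for 9.27% of the 15647 genes with a mean of at least 1 TPM. The morphant libraries lay at 7.15 to 11.41 TPM for runx1 (controls 13.68 to 32.95), at 36.63 to 42.40 for tal1 (controls 53.36 to 58.51) and at 96.75 to 108.16 for myb (controls 144.24 to 203.93). The groups overlapped for the other 3. In morphants kdrl ranged from 22.79 to 122.47 TPM (controls 16.56 to 60.57), cdh5 from 25.84 to 38.43 (controls 16.15 to 30) and gata2b from 32.34 to 56.30 (controls 45.43 to 50.31). The check held no marker of another cell type, and kdrl and runx1 sequences also drove the reporters used for sorting, so it does not measure purity. It was made in the RNA samples and not in the bisulfite samples. Whether the sorted cells of the groups differed in makeup, and what part that has in the methylation levels, was not tested. The transcript of the targeted gene, dnmt3ba, ranged from 111.63 to 196.99 TPM in morphants and from 113.06 to 270.94 TPM in controls, so the groups overlapped. A morpholino need not lower the transcript of its target.

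Losses made up 405 of the 450 chromosome 4 regions, or 90.0%, beside 90.2% of all regions listed. The balance of losses to gains on chromosome 4 was therefore that of the whole table. The other 24 chromosomes ranged from 84.2% on chromosome 22 to 93.7% on chromosome 24. What set chromosome 4 apart in number was the count itself. It held 5.95% of all losing regions, and no other chromosome held more than the 4.16% of chromosome 15. The high count was not particular to losses. Chromosome 4 held 45 gains, beside at most 37 on another chromosome (chromosome 3). Of all 7550 listed regions it held 450, beside at most 320 (chromosome 15). Chromosome 4 is also the chromosome whose regions reach farthest, to 77.7 Mb. Per Mb of that span it had 5.21 losing regions, fewer than chromosomes 15 and 19.

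The losses were unevenly spread between the arms. The arm boundary was set here at 28 Mb of GRCz11, from general knowledge of the karyotype, since the files do not give the centromere. By that boundary 320 of the 405 losing regions, or 79.0%, lay on the long arm and 85 on the short arm. The long arm, followed over 49.7 Mb to the last listed region, had 6.44 losing regions per Mb. The short arm had 3.04 per Mb. The other 24 chromosomes ran from 2.77 per Mb on chromosome 18 to 5.97 on chromosome 15. The short arm thus lay near the lower end of that range, with 22 of the 24 chromosomes above it, and the long arm lay above all 24. The other chromosomes were taken whole, so parts of 1 chromosome are set beside undivided ones. This ranking counts every listed loss. It was not made for deep losses alone, so whether the long arm also lies above all 24 in those was not tested. Losses of at least 30 points numbered 52 on the long arm and 25 on the short arm. They were 16.2% of the long arm's losses, 29.4% of the short arm's and 25.7% of those on the other chromosomes. The long arm's number per Mb thus rests more on shallower losses. Of all losses of at least 30 points, chromosome 4 held 77 of 1756, or 4.38%, beside 5.95% of all listed losses. Boundaries of 24 and 32 Mb put 82.0% and 73.8% of the losses on the long arm. Gains were spread over both arms, with 31 on the long arm (0.624 per Mb) and 14 on the short arm (0.50 per Mb). Losses thus made up 91.2% of the listed long-arm regions and 85.9% of the short-arm ones. In this share 22 of the other 24 chromosomes lay above the short arm and 6 above the long arm.

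**Figure D1:**
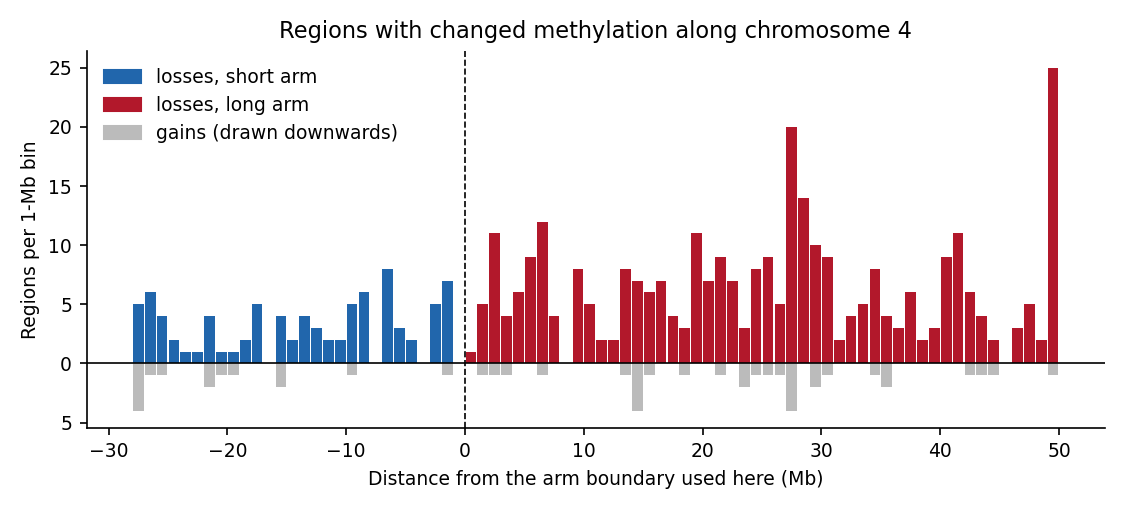
Number of regions in each 1-Mb bin of chromosome 4 (y axis), by distance in Mb from the arm boundary used here (x axis, dashed line at 0). Losses are drawn upwards and gains downwards. The highest bars are the last bin, with 25 losses, and the bin 27 to 28 Mb into the long arm, with 20.

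Losing regions were found along nearly the whole chromosome. Of the 78 bins of 1 Mb, 6 held none. The median bin held 5.5 losing regions on the long arm and 2.5 on the short arm. On the short arm the fullest bin was 21 to 22 Mb, with 8 regions at a median of 80.2% in controls and 49.5% in morphants. On the long arm the fullest was 77 to 78 Mb, the last of the chromosome, with 25 regions at medians of 75.9% and 54.9%. Among all 1-Mb bins of the 25 chromosomes this bin ranked number 2, and 23 of its 25 losses were close neighbours within 17.7 kb. The bin from 55 to 56 Mb ranked number 5, with 20 losses and 4 gains. Its losses started from a high control level (median 86.3%) and were shallow, with a median change of -13.9 percentage points. The next bin, 56 to 57 Mb, held 14 losses and 0 gains, and its losses were deep, with a median of -31.0 points.

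The arms also differed in the level from which methylation was lost. On the long arm the median losing region was methylated at 76.4% in controls (quartiles 60.9 and 86.9%) and at 52.1% in morphants (quartiles 35.3 and 68.2%). On the short arm the medians were 58.2% in controls (quartiles 40.5 and 79.6%) and 30.3% in morphants (quartiles 10.3 and 55.3%). The quartile ranges of the arms overlapped in both groups. The median change was -20.6 percentage points on the long arm and -24.0 on the short arm. Morphant cells thus kept a median of 69.2% of the control level in long-arm regions and 52.4% in short-arm regions. Gaining regions differed between the arms in the same direction. Their medians were 71.6% in controls and 88.4% in morphants over 31 long-arm regions, and 58.6% and 79.5% over 14 short-arm regions. Levels outside the listed regions were not analysed here, so whether the contrast belongs to the arms or to their losses was not tested.

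Taken as a whole, short-arm losses had median levels like those of the rest of the genome. The 25 of them from 20 Mb on stood higher, at medians of 76.4% in controls and 43.2% in morphants. On the other 24 chromosomes together, 5237 losing regions had medians of 59.7% in controls and 29.5% in morphants, with a change of -22.9 points. Taken singly, those 24 chromosomes had median control levels from 51.0% to 67.0% and median morphant levels from 21.3% to 38.8%. Both long-arm medians lay above all 24, none of which was divided into parts. The 1165 losing regions on unplaced scaffolds, which also hold sequence that is hard to assemble, had medians of 62.3% and 31.6%, so they were close to the other chromosomes and not to the long arm.

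**Figure D2:**
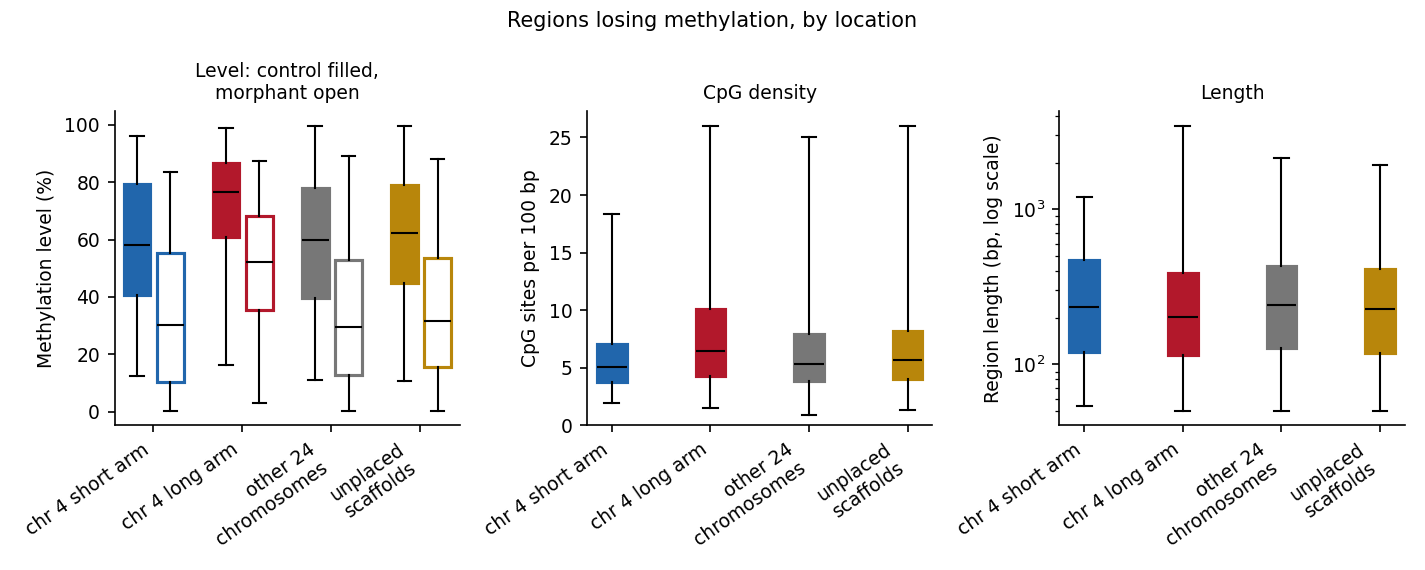
Methylation level in %, CpG sites per 100 bp and length in bp (log scale) of losing regions on each arm of chromosome 4, on the other 24 chromosomes and on unplaced scaffolds. Boxes span the quartiles, the line is the median and whiskers reach the lowest and highest region. The long-arm level boxes sit highest, at medians of 76.4% in controls (filled) and 52.1% in morphants (open).

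The same contrast appeared in shares of regions. In controls, 137 of 320 long-arm losses, or 42.8%, were methylated at 80% or more, beside 21 of 85 (24.7%) on the short arm and 22.8% on the other chromosomes. Regions below 50% in controls made up 12.5% of long-arm losses, 35.3% of short-arm losses and 36.8% of those elsewhere on chromosomes. In morphants, 37 long-arm regions (11.6%) ended below 20%, against 36 short-arm regions (42.4%) and 36.4% on the other chromosomes. Losses of at least 30 points were 16.2% of the long arm, 29.4% of the short arm and 25.7% of the other chromosomes. Long-arm losses were thus more often partial losses from high methylation.

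Along the chromosome the control level was lower over its first 20 Mb and higher from there on. Losing regions from 0 to 10 Mb had a median control level of 50.4%, and those from 10 to 20 Mb of 55.1%. From 20 to 30 Mb the median was 76.4%, and 25 of the 31 losing regions in this window lay on the short arm. These 25 had the same median of 76.4% in controls and 43.2% in morphants, so the higher levels began before the boundary used here. With a boundary at 24 Mb, 332 losses rather than 320 lay on the long arm, so some of the 25 change arm. The 5 windows beyond 30 Mb stayed between 71.3% and 77.9%. Morphant medians followed the same course, from 16.1% and 21.6% in the first windows to 43.2% from 20 to 30 Mb and between 46.5% and 54.0% beyond it.

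Losing regions on the long arm were also richer in CpG sites for their length. The median density was 6.42 CpG sites per 100 bp on the long arm (quartiles 4.31 and 10.1) and 5.06 on the short arm (quartiles 3.79 and 7.04). Each of the other 24 chromosomes, taken whole, had a median between 4.95 and 6.08, and unplaced scaffolds had 5.67. Densities of 10 or more were found in 82 long-arm regions (25.6%), in 9 short-arm regions (10.6%) and in 13.0% of losses on the other chromosomes. Gains were denser than losses in each location. Their median was 8.62 CpG sites per 100 bp over 31 regions on the long arm and 7.66 over 14 on the short arm. Gains on the other chromosomes had 6.85 over 595, and those on unplaced scaffolds 7.39 over 103. The CpG content of the arms outside these regions was not analysed here, so whether the density belongs to the arm or to its losses was not tested.

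The arms lay closer together in size. The median length was 202 bp on the long arm (quartiles 115 and 386) and 234 bp on the short arm (quartiles 120 and 470), with ranges of 50 to 3452 bp and 54 to 1194 bp. The median number of CpG sites was 14 on the long arm and 11 on the short arm. This order of CpG numbers turned with a stricter q-value under 0.01, where the medians were 16 and 18. In sum the losing regions covered 101270 bp with 5777 CpG sites on the long arm and 27335 bp with 1247 CpG sites on the short arm.

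**Figure D3:**
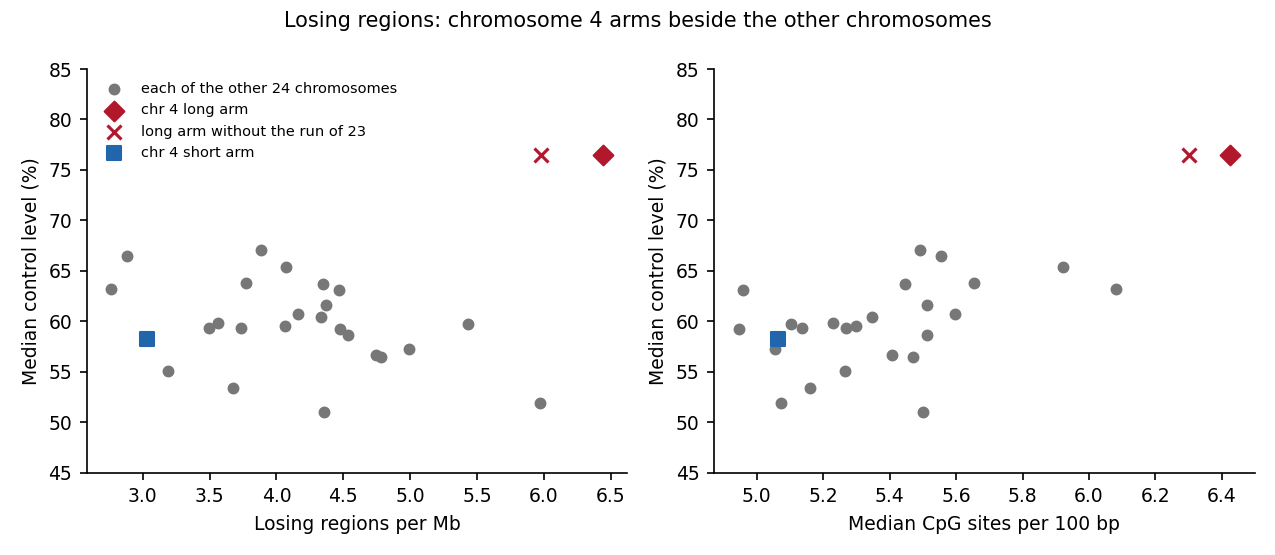
Median control level of losing regions in % (y axes) against losing regions per Mb (left) and against median CpG sites per 100 bp (right). Grey points are the other 24 chromosomes, each taken whole, and every listed loss is counted, shallow or deep. The long arm (diamond, at 6.44 regions per Mb and 76.4%) lies outside the grey points on each axis, and the short arm (square) lies among them. Without its run of 23 neighbours (cross) the long arm stays above the grey points in control level and density. In regions per Mb the cross is level with the highest grey point, at 5.98 beside 5.97.

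On the other chromosomes denser regions had higher median levels, so the arms were also set side by side within classes of density. Under 4 CpG sites per 100 bp, the median control level was 71.1% in 68 long-arm regions, 56.7% in 24 short-arm regions and 57.1% on the other chromosomes. From 4 to 6 the values were 73.3%, 54.0% and 58.0%. From 6 to 10 they were 82.3% on the long arm, 60.4% on the short arm and 63.1% elsewhere. At 10 or more, 82 long-arm regions stood at 77.8%, beside 69.9% on the other chromosomes. The 9 short-arm regions of that class had the highest median of all, 85.9%. The long arm was thus above the other chromosomes in each of the 4 classes, and above the short arm in the lower 3.

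**Figure D4:**
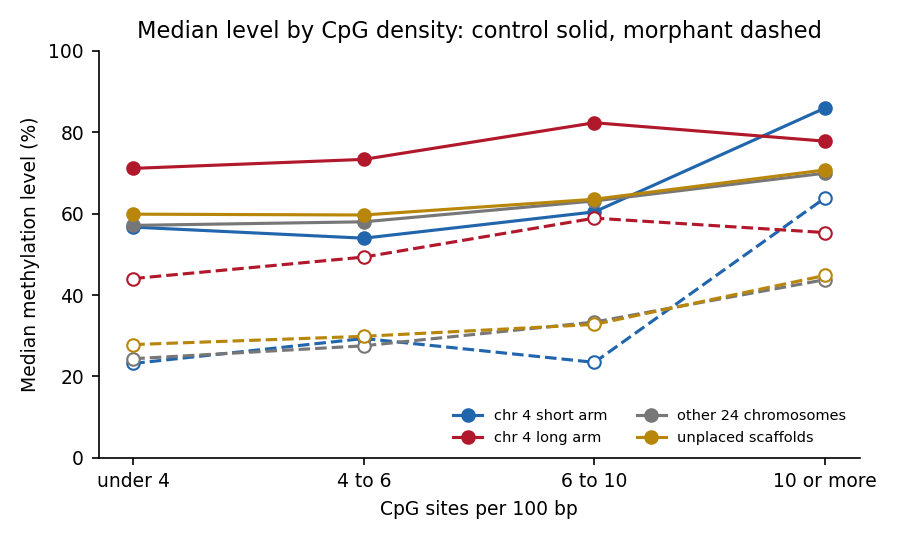
Median methylation level in % (y axis) of losing regions in 4 classes of CpG sites per 100 bp (x axis), for controls (solid lines, filled points) and morphants (dashed lines, open points). The long arm runs from 71.1% to 82.3% in controls, above the other chromosomes in each class. In controls the short arm lies a little below the other chromosomes in the lower 3 classes. In morphants it is lower than they are from 6 to 10 CpG sites per 100 bp, at 23.5% against 33.4%, and slightly lower under 4. It is slightly higher than they are from 4 to 6, and at 10 or more it is higher, at 63.9% against 43.8%.

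The size of the loss was also compared within classes of control level. Where controls stood at 80% or more, the median change was -17.1 points on the long arm, -18.2 on the short arm and -17.0 on the other chromosomes. From 60 to 80% it was -23.6 points on the long arm, -29.3 on the short arm (19 regions) and -27.9 elsewhere. From 40 to 60% it was -24.3, -31.5 (25 regions) and -27.7 points. Under 40% it was -21.5 points on the long arm (21 regions), -18.7 on the short arm (20 regions) and -19.5 elsewhere. The median loss was thus shallowest on the long arm from 40 to 80% and deepest there under 40%, and the 3 locations were closest at 80% or more. Level and change are parts of the contrast that chose the regions, so these values are a description.

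The largest losses of the chromosome were regions with few CpG sites. In the authors' deposited table the largest was chr4:56414211-56414595 on the long arm, with 9 CpG sites, at 84.4% in controls and 27.5% in morphants (-57.0 points, q = 4.7e-05). The next was chr4:32792950-32793012, also on the long arm, which went from 70.6% to 13.9% over 5 CpG sites (q = 0.0032). The other 4 of the 6 largest lay on the short arm, although that arm held 85 of the 405 losses. They were chr4:25082687-25082768, at 57.9% and 6.78% (q = 0.015), and chr4:19288728-19288794, at 75.2% and 24.8% (q = 0.0079). The last 2 were chr4:13489760-13489980, at 63.3% and 14.4% (q = 0.019), and chr4:1280623-1280677, at 58.6% and 10.3% (q = 0.014). All 6 had between 5 and 9 CpG sites, so each level rests on few positions.

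The densest regions lay on the long arm. Among losing regions with 10 or more CpG sites the densest was chr4:37186516-37186565, with 13 CpG sites in 50 bp, at 52.2% in controls and 34.4% in morphants in the authors' deposited table. It was followed by chr4:51578034-51578089, with 12 sites in 56 bp, at 59.9% and 38.3%, and by chr4:65856746-65856808, with 13 sites in 63 bp, at 83.2% and 43.4%. The last of these, at -39.8 points (q = 1.0e-05), combined a dense region, a high control level and a deep loss.

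At the other end, the losses closest to 0 also lay on the long arm. They were chr4:50273178-50273293, at 95.8% in controls and 85.8% in morphants, chr4:56207251-56207669, at 84.4% and 74.3%, and chr4:74646832-74647001, at 17.0% and 6.81%. Their changes were -10.1 points each in the authors' deposited table. The gains closest to 0 on this chromosome were at 10.01, 10.02 and 10.05 points. Both sides thus end at the limit of 10 points below which no change is listed. The largest gain was chr4:42939925-42940323 on the long arm, from 49.4% to 85.3% over 28 CpG sites (q = 2.3e-05).

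Many losses were neighbours. With a gap of at most 10 kb between neighbours, 174 of the 405 losing regions, or 43.0%, fell into 59 runs of 2 or more, and 231 stood alone. On the other 24 chromosomes this share ran from 31.2% to 55.5%, with a median of 38.7%, and 7 of the 24 had a higher share than chromosome 4. Of the long-arm losses 45.3% were in runs, and of the short-arm losses 34.1%. The 6 runs of 4 or more regions all lay on the long arm, which held 79.0% of the losses, and the longest on the short arm had 3. When each run was counted as a single stretch, the long arm had 222 stretches, or 4.47 per Mb, still above the highest of the other 24 chromosomes (3.71 per Mb on chromosome 15).

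The runs differed in kind. A run of 10 regions over 22.5 kb, chr4:56414211-56436705, opened with the largest loss of the chromosome and went from a median of 66.7% in controls to 32.3% in morphants, with losses from -22.7 to -57.0 points. A run of 9 regions over 33.0 kb, chr4:55777483-55810510, started at a median of 87.7% and went to 75.7%, with every loss between -11.8 and -18.9 points. A gaining region lay inside it. These 2 runs are under 1 Mb apart, so deep and shallow losses stood close together. Another run of 7 regions over 5.78 kb, chr4:53716984-53722764, went from 65.9% to 40.4%.

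The longest run stood near the end of the long arm. At chr4:77549889-77567599, 23 losing regions with 1202 CpG sites covered 90.1% of 17.7 kb, with gaps of at most 1109 bp, and ended 130 kb before the last listed region. It held 5.68% of the losing regions of chromosome 4 and 17.1% of their CpG sites. The highest number of CpG sites in a run on the other 24 chromosomes was 277, but a run on an unplaced scaffold came close, with 1176 CpG sites in 27 regions. The chromosome 4 run includes the 3 losing regions of this chromosome with the most CpG sites, the 3 longest and the 3 with the smallest q-values. The last 1 Mb of chromosome 4 held 26 losses, 23 of them in this run, while that of the other 24 chromosomes held 1 to 14. At the opposite end, the first 1 Mb of chromosome 16 held 17.

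This run was joined from losing regions alone, and 0 gaining regions lay inside it. Its 23 regions lost methylation from an intermediate to high level. They were methylated between 66.0% and 89.9% in controls and between 44.3% and 77.0% in morphants, and the losses ran from 12.4 to 28.6 points, with quartiles of -24.1 and -14.7. This spread is close to that of all long-arm losses, whose quartiles were -26.8 and -16.1 points. Weighted by CpG sites, the run stood at 76.3% in controls and 55.6% in morphants. Its first 8 regions include both the largest and the smallest loss of the run. In the authors' deposited table chr4:77549889-77549963 stood at 84.9% in controls and 56.3% in morphants, chr4:77549977-77550318 at 83.2% and 63.9%, and chr4:77550359-77550513 at 80.04% and 54.2%. The next were chr4:77550594-77550848 at 72.0% and 51.5%, and chr4:77550854-77551114 at 87.3% and 74.9%. They were followed by chr4:77551119-77552350 at 75.8% and 54.3%, chr4:77552357-77552557 at 72.9% and 44.7%, and chr4:77552597-77553061 at 71.7% and 58.0%.

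The region with the smallest q-value of the chromosome (4.9e-60 in the authors' deposited table) was chr4:77557471-77559387, with 228 CpG sites in 1917 bp, at 75.9% in controls and 54.9% in morphants. After it came chr4:77551119-77552350, with 113 CpG sites (q = 3.3e-41), and chr4:77554963-77557084, with 151 CpG sites in 2122 bp, at 74.9% and 56.0% (q = 3.0e-35). The longest losing region, chr4:77564148-77567599, closed the run. It had 76 CpG sites in 3452 bp and stood at 72.8% and 58.3% (q = 8.9e-12).

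**Figure D5:**
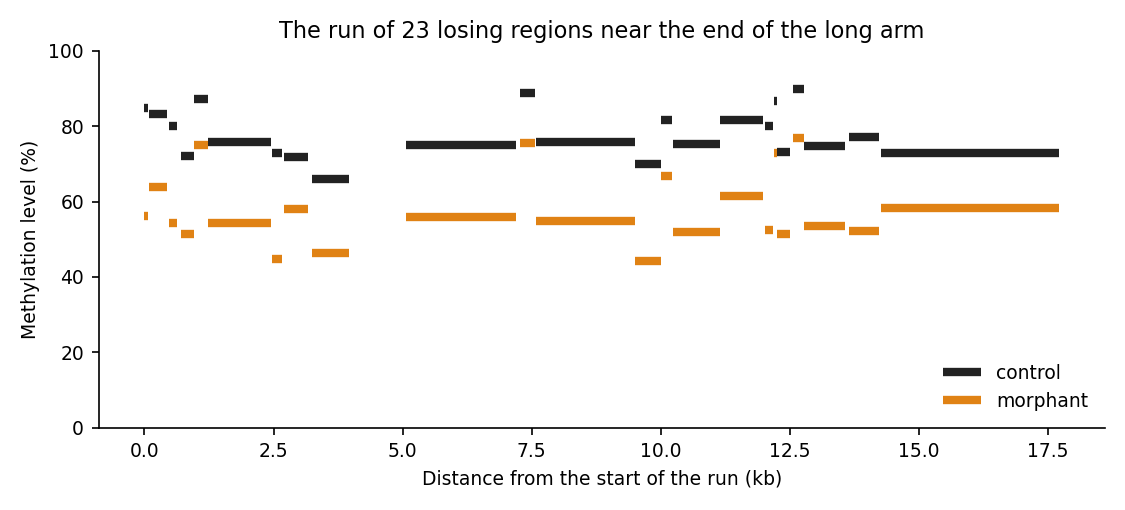
Methylation level in % (y axis) of the 23 neighbouring losing regions near the end of the long arm, by distance in kb from the start of the run (x axis). Each bar spans 1 region, black in controls and orange in morphants. The run was joined from losing regions alone, so each orange bar lies below its black one, here by 12.4 to 28.6 points.

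Region boundaries in this run recurred at a fixed distance, which was looked for after the values had been seen. A distance of 11551 bp separated 8 pairs of starts or ends, and the next most frequent distance separated 2. Levels were similar where a region recurred whole. The region chr4:77550359-77550513, with 22 CpG sites in 155 bp, was at 80.04% in controls and 54.2% in morphants, and its counterpart 11551 bp on had 22 CpG sites in 155 bp as well, at 79.9% and 52.6%. Its start and its end each gave 1 of the 8 pairs. In the other pairs only 1 boundary recurred, and the regions differed in size. The pair least alike in level had 19 and 48 CpG sites. It was at 72.9% and 77.2% in controls and at 44.7% and 52.3% in morphants. The run is 1.53 times as long as this distance. The run of 27 regions on an unplaced scaffold, over 17.5 kb, had the same most frequent distance, between 4 pairs. At a single shift of coordinates, 23 of the 46 boundaries of the chromosome 4 run met a boundary on the scaffold, and the next best shift matched 6 pairs. In 7 regions both boundaries matched, with equal numbers of CpG sites. Among these, control levels differed by at most 2.12 points and morphant levels by at most 0.884 points. The largest, with 228 CpG sites, was at 75.9% and 54.9% on chromosome 4 and at 76.2% and 55.05% on the scaffold.

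The end of the long arm of chromosome 4 is known in zebrafish to carry ribosomal DNA of the type expressed in oocytes. No annotation of GRCz11 was used here, so what the run covers was not tested. No source used here says how reads that align to more than 1 copy were treated. Whether matching copies share reads was not tested.

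Leaving out the run of 23, an alternative chosen after seeing the data, left 297 long-arm losses. Their median levels were 76.5% in controls and 49.9% in morphants, and their median density was 6.30 CpG sites per 100 bp, again above each of the other 24 chromosomes in all 3. Their number per Mb fell from 6.44 to 5.98, which is level with the 5.97 of chromosome 15. Regions alike in length and CpG number remained among the 297. Both chr4:55762130-55762456 and chr4:55827783-55828109 had 327 bp and 23 CpG sites, at 89.1% and 88.4% in controls. Both chr4:70740737-70741078 and chr4:70743217-70743558 had 342 bp and 7 CpG sites, at 81.6% and 81.2% in controls. Whether these are copies or share reads was not tested.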

How the data were processed

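Members and descriptions were chosen with earlier results of these data known. The submitters' processing notes name BS-Seeker2 2.1.8, HISAT2 2.2.1 and GRCz11, and give no roles. No source used here gives the region caller, the coverage minimum, the pooling of replicates or the treatment of multiply aligned reads. Per the file headers, the deposited region table gives the methylation fraction of each group, a CpG count and an FDR, taken as the authors' q-value. Morphants are MO in the table and CF in the titles of the bisulfite samples, whose genotype label gives the group. Fractions were multiplied to percent. The deposited TPM values, per the file headers, served for the marker check alone.

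Chromosome 4 is the fourth of 25 chromosome sequences in numeric order. Length counts both end positions, as the file gives them. Density is CpG sites per 100 bp. Span runs to the end of the last listed region. A run joins losing regions at most 10 kb apart. Regions named were the 6 largest losses, 3 each with the most CpG sites, the greatest length, the highest density (from 10 CpG sites), the smallest q and the change closest to 0, the first 8 of the longest run, and the fullest bins. Others were chosen after their values were seen. No test was made, since there are no values per replicate, and RNA of genes at the regions was not analysed because the expression table gives no positions. Python 3.11.15, pandas 2.3.3 and matplotlib 3.10.9 were used, and the code for runs and densities was checked on simulated regions.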

Additional observations from a re-analysis of the deposited data

How the results depend on the processing

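A stricter q (under 0.01) left 265 losing regions on chromosome 4, a change of at least 20 points 225, and of at least 30 points 77. The share of all losing regions on chromosome 4 was 5.29% at 20 points and 4.38% at 30 points. The share of chromosome 4 regions that lost methylation was 92.7% at the stricter q, 95.3% at 20 points and 97.5% at 30 points. The long arm held 67.5% of the losses of at least 30 points and 73.8% with a boundary at 32 Mb. The share in runs was 35.3% with gaps of at most 5 kb and 57.3% with 50 kb. Counting runs as single stretches gave 4.47 per Mb on the long arm. The stricter q moved long-arm medians to -22.6 points, 240.5 bp and 16 CpG sites, and short-arm medians to 352 bp and 18 CpG sites. At least 10 CpG sites moved median lengths to 260 bp (long arm) and 385 bp (short arm); the CpG number itself was not recomputed under that filter. The other 59 of 79 alternatives stayed within the interval of their value or, for counts, within 1.5 times. The intervals, at 95%, were for medians, shares and numbers per Mb and were taken over regions. They treat regions as independent, although many were neighbours, and do not measure the spread between samples. Over the 6 settings, the long-arm median control level was 14.8 to 23.2 points above the short arm's, and the median density 0.893 to 2.1 CpG sites per 100 bp above.

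No paired analysis was possible because the table holds no values per replicate. For the same reason no replicate was left out. The planned RNA comparison of genes at the regions was not run, because the expression table gives no positions. Levels carry no replicate error and an unknown coverage, and regions with 5 CpG sites rest on few positions.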
